A study of Mus musculus with 5 samples.

Results

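Fat that clings to the outside of the colon and the mesothelium that covers it were followed through 10 genes, of 55471 genes measured. They are 7 genes of fat cells (Cfd, Cidec, Adipoq, Plin1, Plin4, Fabp4 and Car3) and 3 genes of mesothelium (Msln, Upk3b and Wt1), found by symbol, with the estimated counts and TPM of each gene's transcripts summed. They were picked with the propyzamide and vehicle values of these same libraries in view, so their difference between the groups is given as a description and supports nothing. The colon pieces came from male C57BL/6 mice aged 11 weeks, frozen 3 days after TNBS, a hapten that provokes colitis when given into the colon. Every animal had received TNBS, and the groups were vehicle (2 libraries) and propyzamide, a herbicide (3 libraries). RNA was extracted with Trizol and made into SMART-Seq2 libraries, a full-length cDNA method. The sources used here do not give the dose, the segment of colon or how the mesentery was trimmed. Each sample is labelled as a treated mouse without more on the animals, so a p-value reflects only how much these samples vary.

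White fat cells store triglyceride in a single large droplet coated by perilipins, and they release hormones and complement factors into the blood. Mesothelium is the flat epithelium of the serosa, the outermost layer of the gut wall, and it keeps the surface smooth by secreting lubricating glycoproteins. Neither cell type belongs to the mucosa, so RNA from them enters a colon sample with the outer wall and the attached mesentery. In bulk RNA, fewer cells of a type and less RNA per cell cannot be told apart.

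Depth ranged from 1573592 to 2706840 counts a library. A single count was worth 0.340 to 0.609 CPM (counts scaled to library size, with TMM factors). Olfactory and vomeronasal receptor genes, 1972 in all and not known for a role in colon, had a count in 66.8% and 52.9% of cases in vehicle and in 10.5%, 41.0% and 15.8% in propyzamide. The second index of the libraries differed between the groups, with 0 indexes shared, so index and treatment cannot be told apart.

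Promoter windows are shown because several fat genes were high in the same libraries. RefSeq windows of GRCm38.p6, running from 250 bases before to 50 bases after the start, were found for 6 of the 10 genes. Each is written 5′ to 3′ on the strand of the gene, and capitals mark a match to a searched motif on either strand. The nuclear receptor half-site was spelled AGGTCA. The CCAAT box was searched by its own letters. The TATA box was spelled TATAAA. Reverse complements were included, and no matches overlap. The windows are chr10:79890603-79890902 (plus strand) for Cfd, chr6:113435711-113436010 (minus strand) for Cidec, chr16:23146286-23146585 (plus strand) for Adipoq and chr5:136038246-136038545 (plus strand) for Upk3b.
Cfd: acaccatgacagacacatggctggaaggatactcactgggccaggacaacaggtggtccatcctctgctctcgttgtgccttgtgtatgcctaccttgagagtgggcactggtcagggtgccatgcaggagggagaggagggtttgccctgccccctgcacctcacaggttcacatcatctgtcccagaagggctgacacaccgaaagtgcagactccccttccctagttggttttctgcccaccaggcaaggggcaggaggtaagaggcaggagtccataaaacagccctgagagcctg
Cidec: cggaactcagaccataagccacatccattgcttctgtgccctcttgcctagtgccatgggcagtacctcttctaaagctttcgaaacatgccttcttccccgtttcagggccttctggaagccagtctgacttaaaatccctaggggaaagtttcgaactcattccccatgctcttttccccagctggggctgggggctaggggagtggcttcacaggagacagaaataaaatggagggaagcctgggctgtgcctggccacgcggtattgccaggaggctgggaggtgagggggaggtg
Adipoq: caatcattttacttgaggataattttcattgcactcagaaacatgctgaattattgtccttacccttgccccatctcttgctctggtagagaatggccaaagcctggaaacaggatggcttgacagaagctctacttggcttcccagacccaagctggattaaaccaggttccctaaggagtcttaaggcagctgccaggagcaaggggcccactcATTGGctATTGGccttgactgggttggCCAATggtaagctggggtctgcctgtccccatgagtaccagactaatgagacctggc
Upk3b: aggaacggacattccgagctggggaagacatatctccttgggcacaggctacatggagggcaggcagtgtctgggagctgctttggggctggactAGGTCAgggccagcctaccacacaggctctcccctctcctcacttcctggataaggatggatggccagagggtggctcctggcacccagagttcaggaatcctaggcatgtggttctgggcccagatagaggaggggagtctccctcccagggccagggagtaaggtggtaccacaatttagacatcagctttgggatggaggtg
The Adipoq window held 3 CCAAT matches, all within 34 bases before the start, and the Upk3b window held 1 AGGTCA match. No match was present in the windows of Cfd, Cidec and Plin1, and that of Plin4 held 1 CCAAT match. Among 32851 promoter windows of the same length, CCAAT was present in 37.4%, AGGTCA in 16.3% and TATAAA in 13.6%. A match is a description of letters and not of a bound factor.

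The 7 fat genes did not move as a block. Cfd, Cidec, Fabp4 and Car3 were higher in each propyzamide library than in either vehicle library, Adipoq and Plin4 overlapped, and Plin1 was lower. The all-gene edgeR quasi-likelihood test took 5 of the 7 fat genes, and 2 of them passed an adjusted p of 0.05, both higher. Of all 12024 genes tested, 0.690% were called higher and 1.21% lower, 1.90% in either direction. An unadjusted p under 0.05 was reached by 18.2% of genes, and DESeq2 called 4.70%. Non-overlapping groups were found for 16.7% of genes on the higher side and 20.8% on the lower side. As the genes were chosen on this contrast, nothing is read from their counts.

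The secreted products come first. Cfd (adipsin, complement factor D, chr10:79890853-79892655) cleaves factor B in the alternative complement pathway and is one of the most abundant secreted products of fat cells. Its level was 0 and 2.84 CPM in vehicle and 17.3, 26.7 and 192 CPM in propyzamide, from 0, 5, 51, 52 and 315 counts. The third propyzamide library held most of the signal, and the groups did not overlap. The summed counts gave a ratio of 53.5 (95% counting interval 22.7 to 166), and the fitted log2 fold change was 5.90 ± 1.29 (SE), edgeR adjusted p = 0.0417. The call was lost without vehicle 1 (log2 fold change 4.72, edgeR adjusted p = 0.364), vehicle 2 (10.45, 0.145) or propyzamide 3 (4.06, 0.0735). Here and below, a fit without a vehicle library leaves 1 vehicle sample, which is assumed to vary like the propyzamide group, and has fewer degrees of freedom.

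Adipoq (adiponectin, chr16:23146536-23158028) is a hormone made almost only by fat cells. It had 1 and 3 counts in vehicle (0.414 and 1.70 CPM) and 3, 7 and 49 counts in propyzamide (1.02, 3.59 and 29.8 CPM). Propyzamide 1 lay inside the vehicle range, so the groups overlapped, and the high value is that of propyzamide 3 alone. The filter on low counts removed the gene from the main edgeR fit. With no filter its log2 fold change was 3.51 ± 0.89 (edgeR adjusted p = 0.00685), in a fit that called 3.56% of the genes. The ratio of summed counts was 9.44 (95% counting interval 3.50 to 35.8).

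The droplet proteins did not move together. Cidec (chr6:113424634-113435760) drives the fusion of small droplets into a large one. Its level was 1.65 and 0 CPM in vehicle and 13.9, 20.5 and 18.9 CPM in propyzamide. These 3 libraries differed by only 1.47-fold among themselves, the narrowest propyzamide range of the fat genes with counts in every propyzamide library. The ratio of summed counts was 17.9 (95% counting interval 6.81 to 66.9), and the log2 fold change was 4.17 ± 0.81, edgeR adjusted p = 0.0277. The call was lost without any one of vehicle 1 (adjusted p = 0.0599), vehicle 2 (0.141), propyzamide 2 (0.0505) or propyzamide 3 (0.0714). Its counts were assigned to transcript Cidec-202 in propyzamide 1 (41) and to Cidec-201 in propyzamide 2 (40) and 3 (31). The 2 transcripts differ near their start, where Cidec-202 holds 11 inserted bases. They are 1720 and 1703 bases long, so few reads can tell them apart, and no change of transcript is read from the assignment.

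Plin1 (chr7:79720218-79732903), the coat protein of the mature fat-cell droplet, went the other way. It had 6 and 5 counts in vehicle (2.48 and 2.84 CPM) and 1, 0 and 2 in propyzamide (0.340, 0 and 1.22 CPM). The groups did not overlap, and the vehicle counts were 5.73 times the propyzamide counts after scaling (95% counting interval 1.51 to 32.0). The level expected for its length from the receptor genes was 2.55 and 1.61 counts in vehicle against 0.168, 1.32 and 0.394 in propyzamide. The part of this background in the difference was not tested. Plin4 (chr17:56100591-56109803), a perilipin of small and nascent droplets, had 9.93 and 9.65 CPM in vehicle and 9.18, 12.8 and 28.6 CPM in propyzamide. The groups overlapped, with only propyzamide 3 well above the rest, and the log2 fold change was 0.76 ± 0.57, edgeR adjusted p = 0.534. Plin4 overlaps Hdgfl2 on the opposite strand by 17 bases, and the sources used here do not say whether counting used strand.

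The carriers and enzymes were graded. Fabp4 (chr3:10204088-10208576), a fatty acid carrier of fat cells that macrophages and capillary endothelium also make, had 2.90 and 9.08 CPM in vehicle and 15.0, 51.8 and 60.9 CPM in propyzamide. Car3 (chr3:14863512-14872523), a cytosolic carbonic anhydrase of fat and skeletal muscle, had 1.24 and 5.11 CPM in vehicle and 6.46, 21.0 and 78.5 CPM in propyzamide. Neither gene's groups overlapped. For Car3 the lowest propyzamide library lay close to the highest vehicle library. The log2 fold change was 2.85 ± 0.68 for Fabp4 (edgeR adjusted p = 0.0508). For Car3 it was 3.51 ± 0.99 (edgeR adjusted p = 0.0815). Markers of the other cells that make these genes were measured too, and their part in the result was not tested. The 8 macrophage genes summed to 93.1 and 86.2 CPM in vehicle and 43.8, 162 and 298 CPM in propyzamide, and the 9 blood endothelium genes to 45.1 and 36.9 against 41.5, 27.2 and 71.8 CPM. The 8 skeletal muscle genes summed to 12.8 and 27.2 against 19.7, 29.3 and 54.8 CPM. Of these 8, Ckm (muscle creatine kinase) had 4.14 and 18.2 CPM in vehicle and 15.3, 25.7 and 41.4 CPM in propyzamide, highest in propyzamide 3 as Car3 was (log2 fold change 1.32, edgeR adjusted p = 0.284). The myosins Myh1 and Myh4 and myoglobin (Mb) had 0 counts in all 3 propyzamide libraries, whereas Tnnt3 and Actn3 had 3 and 6 counts in propyzamide 3 and 0 in the other two.

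**Figure D1:**
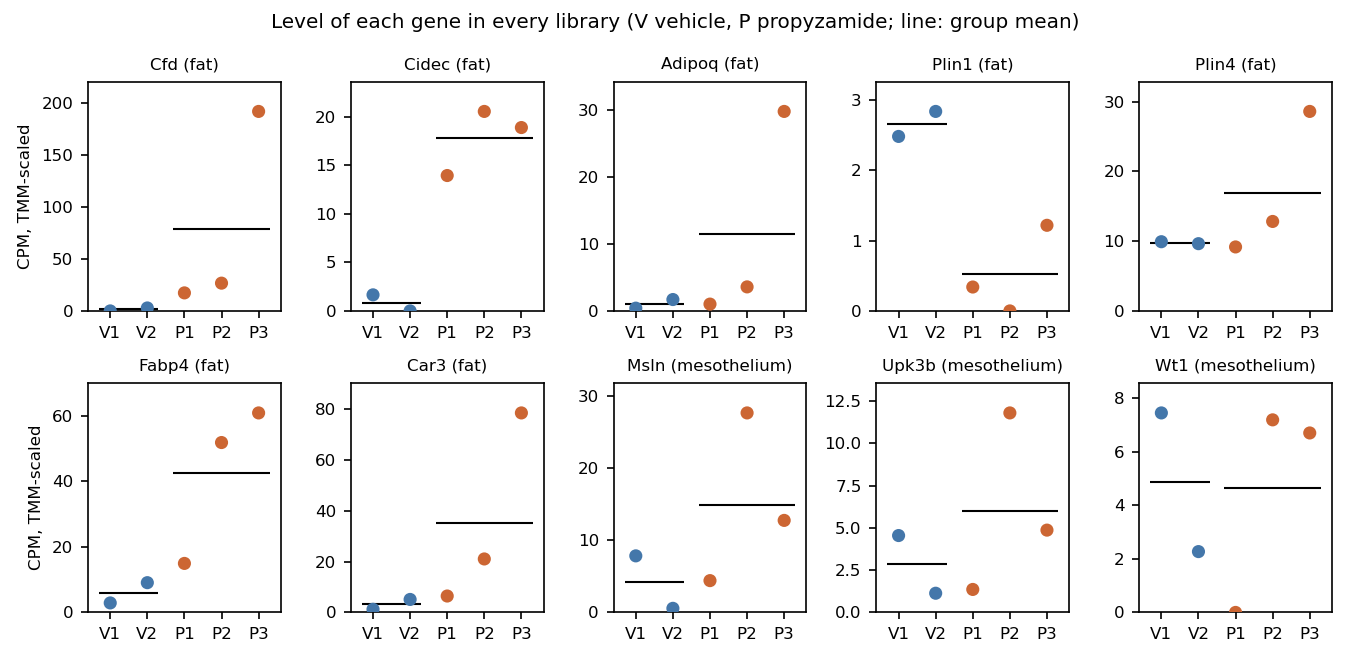
Each panel plots 1 gene's level in CPM (TMM-scaled, linear axis with its own range) in the vehicle (V, blue) and propyzamide (P, orange) libraries, and the line is the group mean. Cfd, Adipoq, Plin4 and Car3 peak in propyzamide 3, Msln and Upk3b in propyzamide 2, and Plin1 lies higher in vehicle.

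Summed over the 7 genes, the fat level was 18.6 and 31.2 CPM in vehicle and 63.2, 137 and 410 CPM in propyzamide. The means were 24.9 ± 8.91 CPM (SD, n = 2) and 203 ± 183 CPM (SD, n = 3), 8.16-fold apart. The propyzamide libraries differed among themselves by more than the lowest of them differed from vehicle. Without propyzamide 3 the fold was 4.01, and without Cfd it was 5.30. After the background expected from receptor genes was subtracted, it was 10.7.

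The make-up of that sum was not constant either. Plin4 took 53.3% and 30.9% of it in vehicle but 14.5%, 9.40% and 6.98% in propyzamide. Cfd took 0% and 9.09% in vehicle and 27.4%, 19.5% and 46.8% in propyzamide. Per length, in the authors' TPM, the order of levels also changed: in propyzamide 3 Cfd was highest (196 TPM), followed by Fabp4 (59.98) and Car3 (40.25), whereas in propyzamide 2 Fabp4 (52.8) exceeded Cfd (28.4). Of the estimated counts on fat genes, 14.5% and 17.7% lay on retained-intron and other noncoding transcripts in vehicle, against 0.570%, 4.41% and 2.08% in propyzamide. In counts these were 6.52 and 9.76 against 1.06, 11.73 and 14.03, all on Fabp4 and Car3, so the counts themselves were not higher in vehicle.

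**Figure D2:**
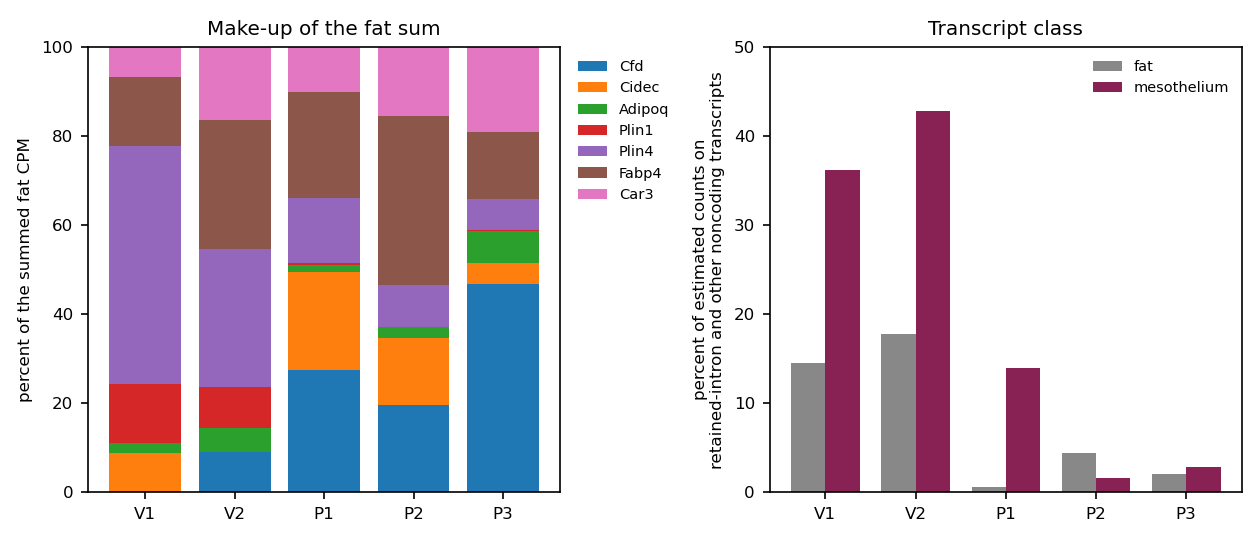
The left plot stacks each fat gene's percent of the summed fat CPM in every library, and the right plot gives the percent of estimated counts on retained-intron and other noncoding transcripts for the fat (grey) and mesothelium (purple) genes. Plin4 leads the sum in both vehicle libraries and Cfd in propyzamide 1 and 3, and the noncoding share of both gene classes is highest in vehicle. The mesothelium share of vehicle 2 is 3 of 7 counts.

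The mesothelium genes did not separate the groups. None of the 3 was called by edgeR, with 0 at an unadjusted p under 0.05 and 0 called by DESeq2. Msln (mesothelin, a surface glycoprotein, chr17:25748613-25754378) had 7.86 and 0.567 CPM in vehicle and 4.42, 27.7 and 12.8 CPM in propyzamide. Its log2 fold change was 1.72 ± 0.89, edgeR adjusted p = 0.336. Vehicle 1 lay above propyzamide 1, so the groups overlapped.

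Upk3b (a uroplakin found in mesothelium, chr5:136038496-136046487) followed the same order of libraries within each group, with 4.55 and 1.13 CPM in vehicle and 1.36, 11.8 and 4.87 CPM in propyzamide. Its log2 fold change was 0.99 ± 0.996 (edgeR adjusted p = 0.655). Wt1 (a zinc finger transcription factor of mesothelium, chr2:105126529-105173616) had 7.44 and 2.27 CPM in vehicle and 0, 7.19 and 6.70 CPM in propyzamide, log2 fold change -0.16 ± 1.12 (edgeR adjusted p = 0.962). Its sign turned without vehicle 1 (0.95) and without propyzamide 1 (0.43). In vehicle 1, 83.3% of the 18 Wt1 counts lay on retained-intron transcripts.

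Together the 3 genes summed to 19.9 and 3.97 CPM in vehicle and 5.78, 46.7 and 24.4 CPM in propyzamide, or 11.9 ± 11.2 (SD, n = 2) against 25.6 ± 20.5 (SD, n = 3). The fold was 2.15 in CPM, but on the TPM scale the log2 ratio was -0.25, so the direction differed between these units. Of the 22.73 TPM in vehicle 1, 9.03 lay on a single retained-intron transcript of Wt1, 941 bases long with 10 counts. The part of this transcript in the change of direction was not tested. Without vehicle 1 the log2 ratio was 2.69 in CPM. In CPM the fat sum peaked in propyzamide 3 and the mesothelium sum in propyzamide 2, so the 2 gauges of the outer wall ranked the libraries differently. In TPM the fat sum again peaked in propyzamide 3 (330). The mesothelium sum in TPM was highest in vehicle 1 (22.73), above propyzamide 2 (18.2).

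Of 10 further mesothelium genes, 7 were tested and 1 rose (0.690% of all genes), Aldh1a2 (an enzyme that makes retinoic acid). It had 2.07 and 2.27 CPM in vehicle and 18.7, 24.1 and 36.5 CPM in propyzamide, log2 fold change 3.57 ± 0.59, edgeR adjusted p = 0.0136. Without vehicle 1 the log2 fold change was 3.48 (edgeR adjusted p = 0.166) and without vehicle 2 it was 3.68 (0.0914), so the size held and the call did not. Upk1b had 1 and 0 counts in vehicle and 4, 47 and 28 in propyzamide (edgeR adjusted p = 0.0596), and Pkhd1l1 had a log2 fold change of 2.69 (edgeR adjusted p = 0.237). The 3 genes that did not pass the filter on low counts were not clearly higher in propyzamide: Bnc1 had 11 and 2 counts in vehicle against 0, 4 and 6, Rspo1 had 3 and 2 against 3, 2 and 2, and Calb2 had 2 and 7 against 10, 10 and 5. The filter keeps a gene that is high in propyzamide alone, so the signs of the tested genes are not read. The sum of the 10 genes overlapped between groups, at 42.2 and 30.1 CPM in vehicle and 33.6, 247 and 108 CPM in propyzamide.

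**Figure D3:**
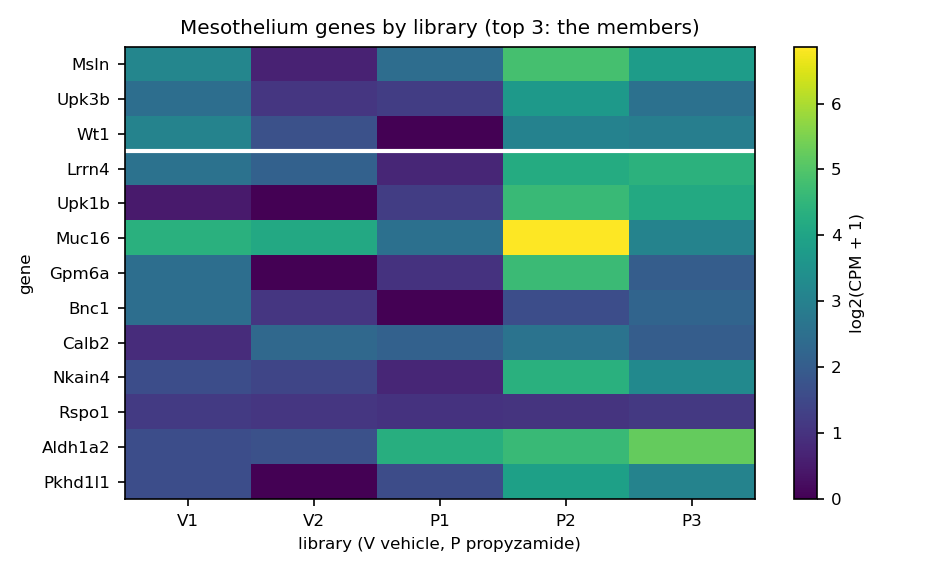
Colour gives log2(CPM + 1) of the 3 mesothelium genes followed here (above the white line) and of 10 further mesothelium genes in each library. Propyzamide 2 is the brightest column for most genes, propyzamide 1 is dark for Wt1 and Bnc1, and Aldh1a2 is bright in all 3 propyzamide libraries.

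The wider fat-cell programme, 54 genes in 6 lists, was then set beside the 7 genes. Of 37 tested, 3 rose (0.690% of all genes), 0 fell (1.21%) and 34 were not called, with a median log2 fold change of -0.21. Their sum was 1036 and 914 CPM in vehicle and 968, 833 and 1118 CPM in propyzamide, which overlapped. Among the 54 genes, 9 were higher and 16 lower without overlap, counting also those that the filter on low counts removed. The shares over all tested genes, 16.7% higher and 20.8% lower, leave such genes out. The 2 are therefore not on the same basis, and no excess is read from them. Many of these genes serve lipid metabolism in other cell types too.

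Of 6 secreted products, 2 were tested and 0 were called by edgeR (0 at an unadjusted p under 0.05, 0 by DESeq2). Angptl4 (an inhibitor of lipoprotein lipase) had a log2 fold change of 0.50 that turned to -0.43 without propyzamide 3, and Rbp4 (a retinol carrier) one of -0.56 that turned to 1.23 without vehicle 1. Leptin (Lep), the hormone that signals fat stores, had 6 and 3 counts in vehicle and 0 in each propyzamide library. The level expected for its length from the receptor genes was 2.95 and 1.87 counts in vehicle against 0.194, 1.53 and 0.456 in propyzamide. The part of this background in the difference in Lep was not tested. Resistin (Retn) had 2 and 1 against 3, 4 and 12 counts.

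Of 11 droplet and lipolysis genes, 6 were tested and 1 rose (0.690% of all genes), Mgll (monoglyceride lipase). It had 7.03 and 23.8 CPM in vehicle and 64.2, 102 and 95.0 CPM in propyzamide, log2 fold change 2.52 ± 0.51, edgeR adjusted p = 0.0323. The call was lost without vehicle 1, propyzamide 2 or propyzamide 3. Plin2, the perilipin of most cell types, had a log2 fold change of -1.28 (edgeR adjusted p = 0.0783), and G0s2, an inhibitor of lipolysis, one of 1.88 (edgeR adjusted p = 0.333).

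Of 12 fat synthesis genes, 11 were tested and 2 rose (0.690% of all genes). Me1 (malic enzyme, which supplies NADPH) had 3.72 and 2.27 CPM in vehicle and 19.4, 25.2 and 31.7 CPM in propyzamide (log2 fold change 3.02 ± 0.55, edgeR adjusted p = 0.0210). Elovl6, which lengthens fatty acids, had 24.0 and 18.7 CPM in vehicle and 66.3, 88.8 and 93.8 CPM in propyzamide (1.95 ± 0.38, edgeR adjusted p = 0.0274). Both calls were lost without vehicle 1, vehicle 2 or propyzamide 3. Acly, which makes cytosolic acetyl-CoA, had a log2 fold change of -1.47 (edgeR adjusted p = 0.0514).

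Of 8 uptake genes all were tested and 0 were called by edgeR, though 5 had an unadjusted p under 0.05 (18.2% of all genes) and DESeq2 called 2 (4.70% of all genes). Slc27a1 (a fatty acid transporter, -2.06, edgeR adjusted p = 0.0521) and Irs1 (an insulin receptor substrate, -3.13, edgeR adjusted p = 0.0602) had negative values and Cd36 (a fatty acid translocase) a positive one (2.37, edgeR adjusted p = 0.123). Of 10 regulators 7 were tested and 0 were called by edgeR (0 at an unadjusted p under 0.05, 0 by DESeq2), among them Pparg (1.16), Lgals12 (-1.43) and Cebpa (0.88). Of 7 thermogenic genes 3 were tested and 0 were called by edgeR (1 at an unadjusted p under 0.05, 0 by DESeq2), namely Ppargc1a (-0.90), Prdm16 (-1.21) and Cox7a1 (0.38). Ucp1, the uncoupling protein of brown fat, had 0 counts in every library.

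Smooth muscle, the other tissue of the outer wall, was present in all 5 libraries. Its 12 genes summed to 549 and 3624 CPM in vehicle and 6146, 9668 and 10358 CPM in propyzamide. The groups did not overlap, and vehicle 1 was far below the other 4 libraries. All 12 log2 fold changes were positive with a median of 2.06, and edgeR called 0 of them, while 10 had an unadjusted p under 0.05 (18.2% of all genes) and DESeq2 called 6 (4.70% of all genes). Synm had a log2 fold change of 2.498 (edgeR adjusted p = 0.0504) and Synpo2 one of 2.31 (edgeR adjusted p = 0.0575). The part of smooth muscle content in the fat values was not tested. The 9 epithelium genes summed to 5101 and 4399 CPM in vehicle and 6609, 5398 and 4929 CPM in propyzamide, which overlapped.

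**Figure D4:**
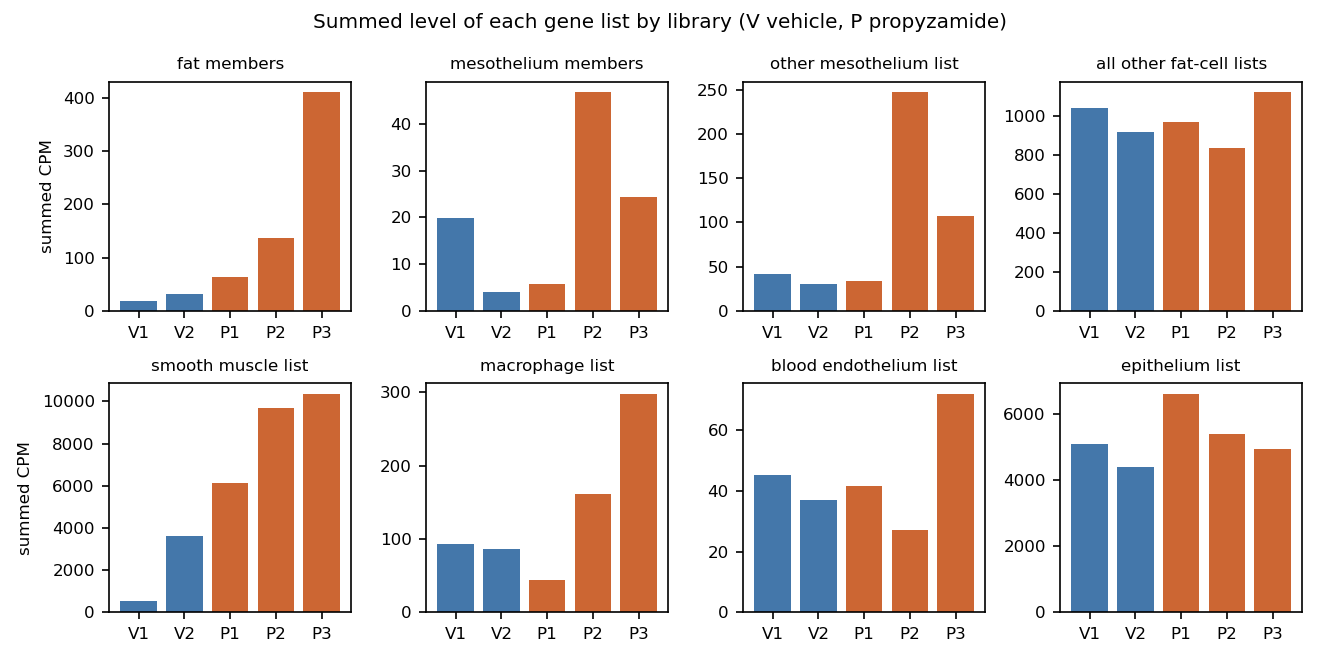
Bars give the summed CPM of each gene list in every vehicle (V, blue) and propyzamide (P, orange) library, on linear axes that start at 0 and differ between panels. The fat genes and smooth muscle are lowest in vehicle 1 and highest in propyzamide 3, both mesothelium lists peak in propyzamide 2, and the wider fat-cell lists overlap between groups.

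Among relatives of the 7 genes, Fabp2, the intestinal fatty acid binding protein, had 7.44 and 2.84 CPM in vehicle and 228, 837 and 453 CPM in propyzamide (log2 fold change 6.56, edgeR adjusted p = 0.00231), and Fabp5 one of 0.26. Cideb, the relative of Cidec in epithelium and liver, had a log2 fold change of 0.41 (edgeR adjusted p = 0.654). Car12 (1.80, edgeR adjusted p = 0.0671) and Car1 (2.04, edgeR adjusted p = 0.0845) were the carbonic anhydrases of smallest p other than Car3.

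By the root-mean-square difference of centred log2(CPM + 1) over the 5 libraries, the genes of 8097 most like the fat sum were Ndn (0.473), Slc35d1 (0.480), Tuba1a (0.512), Vat1 (0.517) and Asb2 (0.519). Ndn ran from 1.24 and 6.24 CPM in vehicle to 4.42, 21.0 and 53.6 CPM in propyzamide. Those most like the mesothelium sum were Steap4 (0.459), Immp1l (0.500), Cav2 (0.508), Lipo3 (0.524) and Cnksr3 (0.527). Steap4 had 13.6 and 2.27 CPM in vehicle and 3.06, 14.9 and 20.7 CPM in propyzamide. With 5 libraries such likeness is a description of these libraries.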

How the data were processed

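The authors deposited 1 table per library with an estimated count and a TPM for each transcript, per the file headers. RSEM, kallisto and GRCm38 are named per the submitters' processing notes, without versions. The sources used here give neither the annotation release nor the use of strand. For each of 55471 genes the estimated counts of its transcripts (142647 in all) were added up, then rounded. Coordinates come from GENCODE M21 (GRCm38).

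All 5 libraries were fitted with edgeR 4.0.16 in R 4.3.3 (filterByExpr, TMM, quasi-likelihood test, Benjamini-Hochberg threshold 0.05). DESeq2 1.42.0 and limma 3.58.1 on log2(TPM + 1) and log2(TPM + 0.1) were alternatives. Counting intervals are exact at 95% on counts pooled over the libraries of each group. They cover counting error only and leave out differences between libraries. Reads carry no molecular identifiers, so copies of the same molecule cannot be told apart, and the intervals may be too narrow even for counting error. The steps were tested on simulated data, where 4.55% of 2-fold, 45.8% of 4-fold and 75.8% of 8-fold changes were recovered. A gene that was not called may therefore have changed.

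The members and the 24 gene lists were chosen with earlier results of these data known. The naming rule took all 10 genes, up to 3 genes of smallest unadjusted p per list (at most 2 for other cell types), and the 5 genes nearest in pattern to each class, with a mean log2 CPM of at least 3. Results of 1 selected gene were left out. After first results, the receptor gene set was widened from protein-coding genes to all 1972 and limma without a trend was added. All genes that the rule selects were carried through the alternatives; a shortened set, drawn up after the reversals had been seen, was tried and discarded.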

Additional observations from a re-analysis of the deposited data

How the results depend on the processing

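The number of genes called was 229. It was 565 with DESeq2, 1327 with no filter on low counts, 148 with a minimum of 10 CPM in 2 samples, 490 with limma on log2(TPM + 1), 101 with the same without a trend, and 362 without rRNA-like and mitochondrial genes. Leaving out 1 library gave 36 to 499. Fat genes called numbered 2, but 5 with no filter and 1 with limma on log2(TPM + 0.1) without a trend, and 0 to 4 on leaving out a library. Mesothelium genes called stayed at 0 in all 15 alternatives. With a replicate block, 639 genes and 4 fat genes were called. Replicate 3 exists only in propyzamide, so that fit takes its group difference from replicates 1 and 2 alone. Propyzamide 3, where the fat sum was highest, adds nothing to it. Deviations of same-numbered libraries correlated at 0.171 and 0.148 over 2 pairs. With 2 vehicle libraries each value mirrors that of the crossed pair, and the labels tie no animals together, so whether the numbers pair the samples cannot be told.

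The summed fat ratio (log2 3.03) kept its direction in all 17 alternatives, 2.00 to 3.46 on leaving out a library. The genes were chosen on this contrast and the sums did not overlap. Leaving out a library could therefore hardly turn the sign, and nothing is read from it. The summed mesothelium ratio (1.10) was -0.25 on the TPM scale and 0.34 to 2.69 on leaving out a library.

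Over the fold changes of all named genes, 904 values kept their side of the threshold, 75 passed it newly, 63 lost it and 35 turned sign. With limma on log2(TPM + 1), with or without a trend, Cox7a1 was -0.12, Cd55 -0.091, Egfl7 -0.34 and Pdgfra -0.24. On log2(TPM + 0.1), Cox7a1 was -0.12, Cd55 -0.097, Egfl7 -0.35, Pdgfra -0.31, Angptl4 -0.12 and Pparg -0.010. With the replicate block, Egfl7 was -0.20, Angptl4 -0.70 and Lyz2 -0.024. On leaving out a library, these genes turned sign within their range: Wt1 (-0.74 to 0.95), Rbp4 (-1.24 to 1.23), Cideb (-0.12 to 1.23), Upk1a (-0.026 to 1.96), Steap4 (-0.067 to 2.42), Esam (-0.047 to 3.11), Acta1 (-0.64 to 0.095), Plin3 (-0.52 to 0.0079), Fabp5 (-0.22 to 0.62), Egfl7 (-0.20 to 0.48) and Angptl4 (-0.43 to 1.12). The causes were not tested. Several fat and mesothelium genes had under 10 counts in a vehicle library, which limits every ratio to them.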

Other observations

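C3, which acts in the same complement pathway as Cfd, peaked in propyzamide 2, where the mesothelium sum was highest in CPM but not in TPM. This central complement protein had 57.5 and 7.38 CPM in vehicle and 31.6, 466 and 182 CPM in propyzamide. Of 9 alternative pathway genes 5 were tested and edgeR called 0, with 1 at an unadjusted p under 0.05 and 0 by DESeq2 (edgeR adjusted p = 0.152 for C3).

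Genes of tissues next to the colon were also looked at. Cela1, an elastase made in pancreas and in other tissues, had 188 and 179 CPM in vehicle and 60.2, 31.8 and 49.3 CPM in propyzamide and fell by 1.96 on the log2 scale (edgeR adjusted p = 0.0217). The call was lost without vehicle 1, vehicle 2 or propyzamide 3. The other 5 exocrine pancreas genes had at most 2 counts in any library. Ttr (transthyretin, a plasma carrier made by liver and other tissues) had 40.1 and 31.8 CPM in vehicle and 3.74, 0 and 0.609 CPM in propyzamide and fell by 4.36 on the log2 scale (edgeR adjusted p = 0.0149). Its call held in 13 of 15 alternatives and was lost without vehicle 1 or vehicle 2. The other 4 hepatocyte genes had at most 5 counts in any library. The 6 B cell and lymph node genes summed to 29.4 and 8.51 CPM in vehicle and 2.04, 3.08 and 0 CPM in propyzamide, and 0 of them passed the filter on low counts.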
